A study of Mus musculus with 8 samples.

Results

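The probes for calcium/calmodulin-dependent protein kinase II (CaM kinase II) were examined in mouse hearts after a fast. All non-control array probes whose accession maps to Camk2a, Camk2b, Camk2d or Camk2g were taken, each kept separate. This gave 7 of the 41174 probes on the array, namely 3 for Camk2d, 2 for Camk2a, 1 for Camk2b and 1 for Camk2g. The 4 genes are among 18351 that the array names. All 7 probes were among the 26478 kept, those that 4 or more of the 8 arrays measured well above background. The fasted hearts came from 4 male C57BL/6J mice, a standard inbred strain, aged 9 weeks and kept for 2 days without food but with water. The satiated hearts came from 4 male C57BL/6J mice of the same age on a standard pellet diet. RNA of the heart was labelled with 1 dye and hybridised to 1 Agilent array per mouse, with replicates 1 and 2 of each group on slide 1 and replicates 3 and 4 of each group on slide 2. The comparison addresses how transcripts of the heart differ after fasting. The 4 genes were singled out with the fasted and satiated values in view, so their values are given as a description and without a test.

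CaM kinase II is a serine/threonine kinase that assembles into ring-shaped holoenzymes and is switched on when calcium-loaded calmodulin binds its regulatory segment. Autophosphorylation then lets it stay active after calcium has fallen. The delta product is the main form of the heart and gamma accompanies it, whereas alpha and beta are best known from neurons. Each of the 4 genes is alternatively spliced. In Camk2d, a variable exon between the regulatory and association domains decides whether the kinase can enter the nucleus, and the resulting variants are usually called delta B and delta C. The Camk2a gene also encodes alphaKAP, a muscle anchoring protein without the kinase domain.

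A level is given below as a percentage of the array's 75th percentile of processed intensity, and a difference as log2 of fasted over satiated. Different probes bind their targets with different strength, so the level of a probe was not set against that of another. The arrays carried no saturated member probe. Between 66.7% and 68.9% of probes were well above background on slide 1, against 54.4% to 55.6% on slide 2. Array profiles correlated at 0.978 to 0.991 within a group on a slide, and at 0.954 to 0.975 between groups on a slide. These correlations are across probes and describe the arrays. In whole hearts, fewer cells of a type and less RNA per cell cannot be told apart. The labels number the hearts as separate samples, and the errors and p-values cover the spread between these samples. Each SE of a difference is the moderated error of the limma fit described below. It draws on the spread of all kept probes as well as that of the probe itself.

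The start-site windows of Camk2d and Camk2b are shown because 2 of the 3 Camk2d probes and the Camk2b probe had no overlap between the groups, and because the windows hold the same short motif. They are RefSeq sequence of the GRCm38.p6 assembly, each running from 250 bases before to 50 bases after the annotated start, read 5′ to 3′ on the gene's strand. The Camk2d window is chr3:126596701-126597000 on the plus strand and the Camk2b window is chr11:6065699-6065998 on the minus strand. Capitals mark GGGCGG or its reverse complement CCGCCC, the core of the GC box that Sp/KLF zinc-finger factors bind.
Camk2d: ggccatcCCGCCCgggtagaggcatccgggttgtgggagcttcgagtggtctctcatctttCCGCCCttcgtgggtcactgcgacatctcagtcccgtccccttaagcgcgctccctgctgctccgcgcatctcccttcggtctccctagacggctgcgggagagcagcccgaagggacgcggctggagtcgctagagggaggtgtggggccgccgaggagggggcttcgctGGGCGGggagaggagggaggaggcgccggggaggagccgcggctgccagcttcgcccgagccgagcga
Camk2b: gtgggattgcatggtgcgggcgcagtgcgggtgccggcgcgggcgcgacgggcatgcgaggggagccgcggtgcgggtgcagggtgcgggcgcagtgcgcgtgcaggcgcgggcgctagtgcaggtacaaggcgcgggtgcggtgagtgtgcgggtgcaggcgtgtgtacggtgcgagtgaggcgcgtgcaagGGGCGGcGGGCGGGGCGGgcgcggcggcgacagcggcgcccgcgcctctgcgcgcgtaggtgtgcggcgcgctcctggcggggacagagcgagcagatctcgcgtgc
The Camk2d window was 70.3% G and C with 31 CpG dinucleotides, and the Camk2b window was 77.3% with 51. Over all 32851 such windows of the table the median was 52.7% with 7 CpG. GGGCGG occurred 3 times in each of the pair, counting both strands, with 2 of the Camk2b matches inside 1 run of capitals. It was present in 35.7% of all windows. The pair was shown partly for holding it and is richer in G and C than the median window, so nothing is read from this share. Other motifs were searched on both strands and had no match in the pair. These were CCAAT, held by 37.4% of all windows, the TATA box TATAAA, by 13.6%, the E-box CACGTG, by 7.15%, the forkhead motif TGTTTAC, by 3.65%, and the GATA motif AGATAA, by 11.2%. A match is a run of letters and not a measured binding site.

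The Camk2d probes moved in opposite directions. A pair of them read higher in fasted hearts and the third, the brightest of the gene, read lower in fasted hearts. Probe A_52_P188261 read 411%, 308%, 639% and 341% in fasted hearts 1 to 4, against 181%, 191%, 169% and 168% in satiated hearts 1 to 4. Every fasted heart was above every satiated heart, and the satiated hearts lay close together while fasted heart 3 stood above the rest. The log2 difference was 1.20 ± 0.22 (SE, n = 4 each), or 2.30-fold higher in fasted hearts. It was 0.94 on slide 1 and 1.47 on slide 2.

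Probe A_51_P510817 of Camk2d showed the same order. It read 141%, 114%, 233% and 127% in fasted hearts 1 to 4, against 82.6%, 85.4%, 89.2% and 81.3% in satiated hearts 1 to 4. The groups did not overlap, and fasted heart 3 was again the highest. The log2 difference was 0.81 ± 0.22 (SE, n = 4 each), or 1.75-fold higher in fasted hearts, with 0.59 on slide 1 and 1.02 on slide 2.

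Probe A_52_P428745 of Camk2d read 916%, 875%, 1443% and 1000.3% in fasted hearts 1 to 4, against 1399%, 1536%, 1629% and 1595% in satiated hearts 1 to 4. Fasted heart 3 exceeded satiated heart 1, and this was the only crossing between the groups. Within each slide, both fasted hearts were below both satiated hearts. The log2 difference was -0.57 ± 0.17 (SE, n = 4 each), which is 1.48-fold lower in fasted hearts, with -0.71 on slide 1 and -0.42 on slide 2. Fasted heart 3 was thus the highest fasted heart on all 3 Camk2d probes. Without it, the log2 differences were 0.99 for A_52_P188261, 0.59 for A_51_P510817 and -0.73 for A_52_P428745, and no probe of Camk2d overlapped between the groups.

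The array annotation assigns all 3 Camk2d probes to the same transcript accession, NM_001025439. Which exons each probe covers was not analysed here, so the opposite differences are given by probe and not by transcript.

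**Figure D1:**
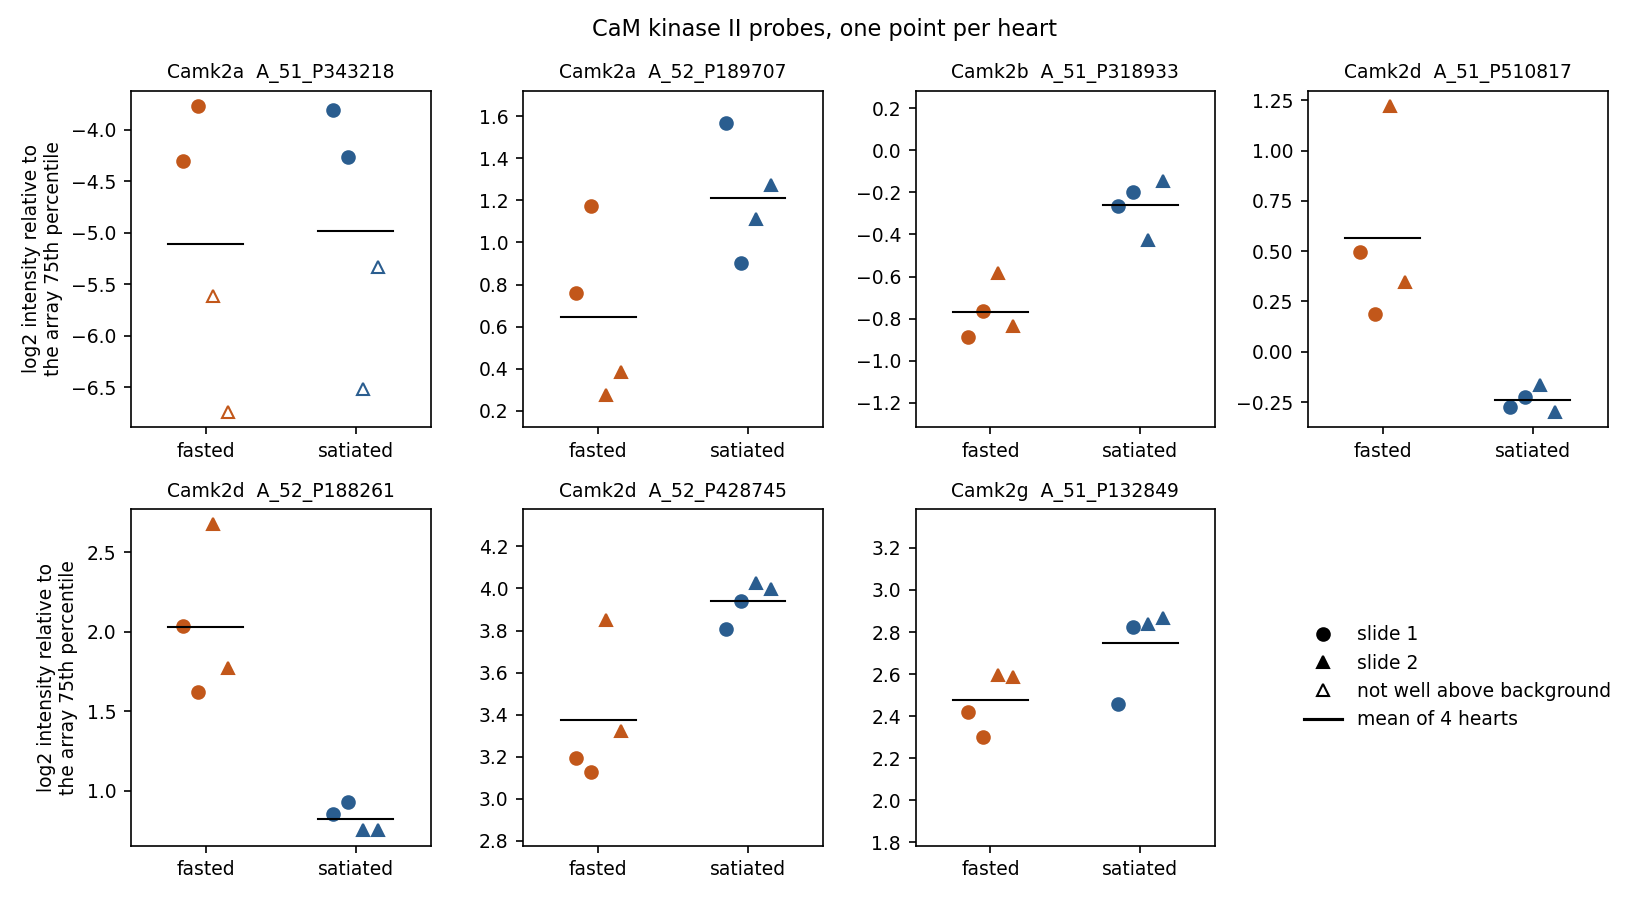
Level of each CaM kinase II probe in every heart, as log2 intensity relative to the array's 75th percentile, with fasted hearts left of satiated hearts, circles for slide 1, triangles for slide 2, open symbols where the probe was not well above background, bars for the group means and a vertical scale for each panel. The first 2 Camk2d panels sit higher in fasted hearts, while A_52_P428745 sits lower with fasted heart 3 at 1443% above satiated heart 1 at 1399%.

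Because the probes of a gene share each array, their ratio within an array does not depend on how the array was scaled. The log2 ratio of A_52_P188261 to A_52_P428745, set to a mean of 0 over the satiated hearts, was 1.96, 1.61, 1.94 and 1.57 in fasted hearts 1 to 4, against 0.17, 0.11, -0.15 and -0.12 in satiated hearts 1 to 4. Its fasted mean was 1.77 ± 0.21 (SD, n = 4), a 3.42-fold shift, and the groups were far apart relative to the spread in either. For A_51_P510817 to A_52_P428745 the log2 ratio was 1.48, 1.24, 1.56 and 1.21 in fasted hearts, against 0.10, 0.02, -0.01 and -0.11 in satiated hearts. The fasted mean was 1.37 ± 0.17 (SD, n = 4), a 2.59-fold shift. In these ratios fasted heart 3 lay within the range of the other fasted hearts for the first pair and slightly above them for the second. The ratios show that the signals of the probes changed unequally, and not which of them stayed constant.

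**Figure D2:**
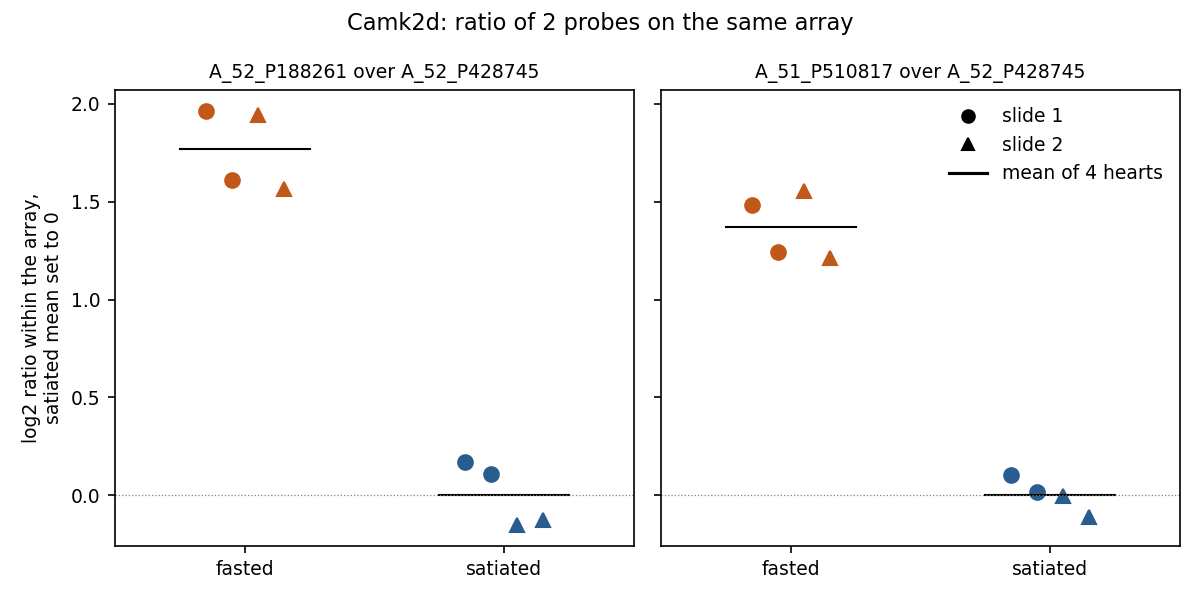
Log2 ratio of each fasted-high Camk2d probe to A_52_P428745 within the same array, centred on the satiated mean, for fasted hearts on the left and satiated hearts on the right. Fasted hearts lie between 1.57 and 1.96 in 1 panel and between 1.21 and 1.56 in the other, and satiated hearts lie between -0.15 and 0.17.

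Opposed probes were counted in other genes too. Among 1173 genes with at least 3 kept probes, 120 (10.2%), Camk2d included, had probes that separated the groups in opposite directions on both slides. Over all 8 hearts at once the count was 46 (3.92%). Camk2d was not among them, since fasted heart 3 exceeded satiated heart 1 on A_52_P428745. These counts were chosen after the Camk2d values had been seen.

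Camk2b, the beta subunit gene, read lower in fasted hearts. Its probe A_51_P318933 was at 54.0%, 58.8%, 66.6% and 56.1% in fasted hearts 1 to 4, against 83.2%, 87.1%, 74.4% and 90.5% in satiated hearts 1 to 4. The groups did not overlap, and fasted heart 3 and satiated heart 3 came closest to each other. The log2 difference was -0.51 ± 0.12 (SE, n = 4 each), with -0.59 on slide 1 and -0.42 on slide 2.

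Camk2g, the gamma subunit gene, differed less. Its probe A_51_P132849 read 535%, 493%, 605% and 599.9% in fasted hearts 1 to 4, against 549%, 708%, 714% and 729.6% in satiated hearts 1 to 4. Satiated heart 1 lay among the fasted hearts and apart from the other satiated hearts. The log2 difference was -0.27 ± 0.14 (SE, n = 4 each), with -0.28 on slide 1 and -0.26 on slide 2. Without satiated heart 1 it was -0.37 and the groups no longer overlapped.

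The 2 Camk2a probes carry different accessions. A_52_P189707, on NM_177407, read 169%, 226%, 121% and 130.3% in fasted hearts 1 to 4, against 297%, 187%, 216% and 241% in satiated hearts 1 to 4. The groups overlapped, since fasted heart 2 exceeded satiated hearts 2 and 3. The log2 difference was -0.57 ± 0.23 (SE, n = 4 each), with -0.27 on slide 1 and -0.86 on slide 2.

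The other Camk2a probe, A_51_P343218 on NM_009792, was dim. It read 5.06%, 7.35%, 2.04% and 0.936% in fasted hearts 1 to 4, against 7.13%, 5.22%, 1.09% and 2.48% in satiated hearts 1 to 4. All 4 arrays of slide 1 measured it well above background and none of slide 2 did, so 2 of 4 hearts in each group had a measured level. The groups overlapped throughout, and the log2 difference of -0.13 ± 0.77 (SE, n = 4 each) was smaller than its error.

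Of the 7 probes, 3 had no overlap between fasted and satiated hearts, 2 of Camk2d higher and the Camk2b probe lower in fasted hearts. On the whole array 28.0% of kept probes had no overlap, 13.7% higher and 14.3% lower. Counting probes whose groups were apart on each slide in the same direction, a count chosen after the values were seen, gave 5 of 7, with 2 higher and 3 lower in fasted hearts. That held for 46.9% of all kept probes, 23.3% higher and 23.6% lower. Since the genes were chosen on this contrast, nothing is read from these shares.

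**Figure D3:**
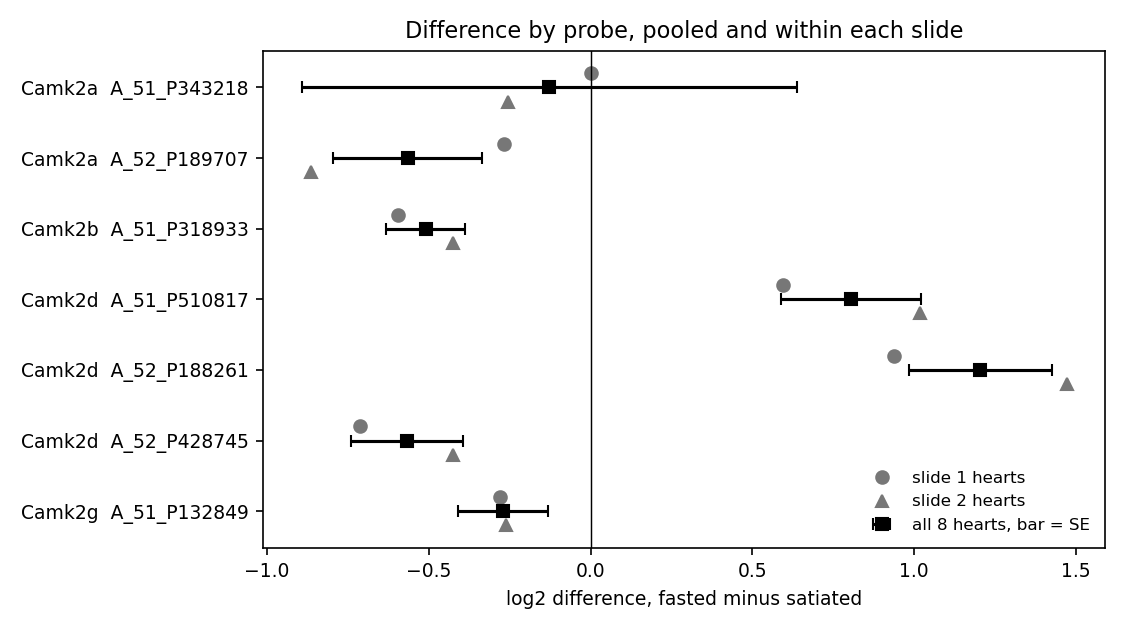
Log2 difference, fasted minus satiated, of each CaM kinase II probe with its moderated standard error over 8 hearts and the values on slide 1 and slide 2. A pair of Camk2d probes lies at 0.81 and 1.20, the third Camk2d probe at -0.57, Camk2b at -0.51, Camk2g at -0.27 and the Camk2a probes at -0.57 and -0.13.

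The genes whose pattern was most like that of a CaM kinase II probe were looked up among 13863 other genes, by Pearson's r of log2 levels centred on each slide over the 8 arrays. These are descriptions over 8 arrays that share a scaling and the same fasted and satiated hearts. The brightest Camk2d probe, A_52_P428745, was followed by Msra (0.994), Copz2 (0.992) and Commd1 (0.992). For Camk2b these were Tmem86a (0.995), Cryba4 (0.995) and Tceal3 (0.993). For Camk2g they were Llgl1 (0.988), Sephs1 (0.981) and Lasp1 (0.973), and for the brighter Camk2a probe Cspg5 (0.984), Wasf1 (0.979) and Ankrd24 (0.968). For the Camk2d probe with the larger increase, A_52_P188261, looked up after its values had been seen, they were Mta3 (0.999), Trafd1 (0.998) and Ythdc1 (0.998). The lists of the opposed Camk2d probes had no gene in common. Each list takes the highest positive r, so opposed probes could hardly share a gene, and nothing is read from this.

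The proteins that act on CaM kinase II and its upstream calmodulin were read from a list of 28 genes, counted by the brightest probe of each gene and tested with limma over all kept probes. Camk2n1, an inhibitor of the kinase, rose in fasted hearts, and its phosphatases moved in opposite directions, Ppm1f lower and Ppm1e higher. Of 22 genes kept, 4 rose and 4 fell in fasted hearts and 14 did not pass the test (36.4% called, median log2 difference 0.04). Over all 13887 genes, 22.4% were called, 10.5% higher and 11.9% lower in fasted hearts, with a median of -0.02. Over all kept probes, 20.9% were called, 10.4% higher and 10.5% lower in fasted hearts.

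Camk2n1 encodes a small protein that binds active CaM kinase II and inhibits it. It read 193%, 196%, 183% and 159.8% in fasted hearts 1 to 4, against 120.1%, 110.0%, 112% and 87.2% in satiated hearts 1 to 4. The groups did not overlap, and the log2 difference was 0.78 ± 0.14 (adjusted p = 0.0072, limma). Its relative Camk2n2 had a log2 difference of -0.04 ± 0.18 and did not pass the test. Ppm1f, a phosphatase that dephosphorylates CaM kinase II, was at 643% ± 43.3 in fasted and 1045% ± 55.1 in satiated hearts (SD, n = 4 each, limma adjusted p = 0.00387). Its log2 difference was -0.70 ± 0.11. A further Ppm1f probe had -0.68 ± 0.66 and did not pass. Ppm1e, the related phosphatase of CaM kinases, was higher in fasted hearts without overlap, with a log2 difference of 0.48 ± 0.13 (limma adjusted p = 0.0347). That call was lost on leaving out any 1 heart but fasted heart 4 or satiated heart 1 (limma adjusted p up to 0.1000).

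Camk1, encoding CaM kinase I, averaged 109% ± 10.7 in fasted and 188% ± 24.9 in satiated hearts (SD, n = 4 each), a log2 difference of -0.78 ± 0.14 (limma adjusted p = 0.00696). A further Camk1 probe gave -0.81. Camkk1, a kinase that activates CaM kinase I, was lower at -0.79 ± 0.21 (limma adjusted p = 0.0297), and Dapk1, a calmodulin-regulated death-associated kinase, higher at 0.78 ± 0.21 (limma adjusted p = 0.0315). Each of these calls was lost in 6 of 8 cases on leaving out 1 heart, all but fasted heart 3 and satiated heart 2 for Camkk1 (limma adjusted p up to 0.0757) and all but fasted hearts 2 and 3 for Dapk1 (up to 0.0768). The calmodulin-binding peptide Pcp4 and its relative Pcp4l1 moved apart. Their log2 differences were -0.80 ± 0.18 (limma adjusted p = 0.0178) and 0.97 ± 0.23 (limma adjusted p = 0.021), in that order. Pcp4l1 stood highest in fasted heart 3, at 7895% against 3770.0% to 4451% in the other fasted hearts. Both peptides lost the call when a satiated heart was left out, Pcp4 without satiated heart 2 or 4 (limma adjusted p = 0.0530 and 0.0543) and Pcp4l1 without satiated heart 2, 3 or 4 (limma adjusted p between 0.0507 and 0.0567).

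Calm2 and Calm3, which encode calmodulin, were looked at by probe after their values had been seen. For Calm3, 1 of 3 probes passed, at -0.60 (limma adjusted p = 0.0106), and for Calm2 none did.

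**Figure D4:**
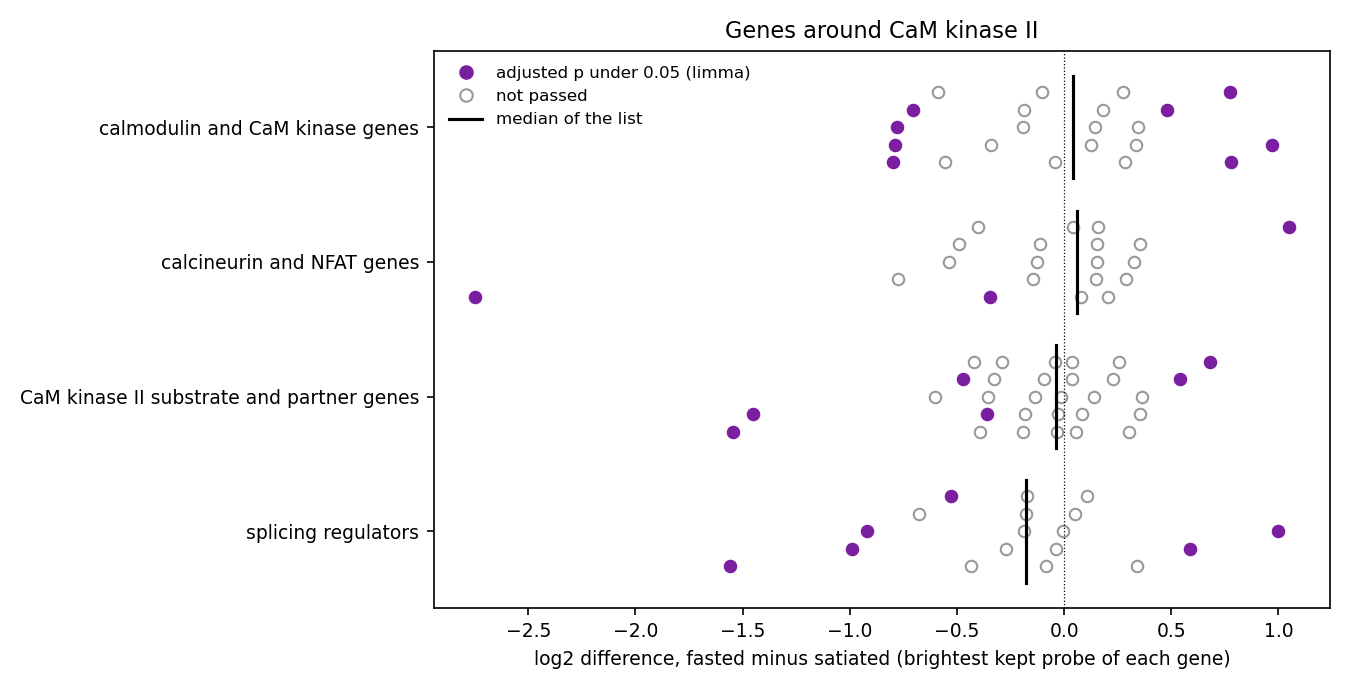
Log2 difference, fasted minus satiated, of the kept genes in the 4 pathway lists, 1 point per gene by its brightest probe, with filled points for genes called by limma at an adjusted p under 0.05 and a bar at the median of each list. The medians lie between -0.18 and 0.06, and each list holds genes called in either direction.

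Among 30 kept genes of CaM kinase II substrates and partners, 2 rose and 4 fell in fasted hearts and 24 did not pass the test (20% called, median -0.04). Genes of the calcium store did not pass on their brightest probes. Pln, the brake on the calcium pump, had a log2 difference of -0.42 (limma adjusted p = 0.0683), and Ryr2, the calcium release channel, one of -0.19 (limma adjusted p = 0.364). Atp2a2, the calcium pump, had -0.18 (limma adjusted p = 0.515) on its brightest probe. Of its other probes, A_52_P569001 was lower in fasted hearts without overlap, at -0.51 ± 0.13 (limma adjusted p = 0.0278), and A_52_P168097 had -0.54 and did not pass. The call of A_52_P569001 was lost on leaving out any 1 heart but fasted heart 2 or 3 (limma adjusted p up to 0.0708). With replicate numbers blocked, 10 genes of the list were called.

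The called genes with the largest decreases in this list encode channel subunits. Kcnd2, a pore subunit of the transient outward potassium channel, read 157%, 183%, 139% and 153% in fasted hearts 1 to 4, against 464%, 444%, 482% and 444% in satiated hearts 1 to 4. The groups were far apart, with a log2 difference of -1.54 ± 0.12 (limma adjusted p = 0.000364), and a further Kcnd2 probe gave -1.75. Cacnb2, the beta subunit of the L-type calcium channel, averaged 62.2% ± 22.8 in fasted and 168% ± 49.9 in satiated hearts (SD, n = 4 each), a log2 difference of -1.45 ± 0.32 (limma adjusted p = 0.0145).

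The nuclear members of the list differed in direction. Hdac5, a class IIa histone deacetylase that CaM kinase II phosphorylates, was higher in fasted hearts, with a log2 difference of 0.54 ± 0.16 (limma adjusted p = 0.0432). Of the MEF2 factors that it represses, Mef2d was higher at 0.68 ± 0.19 (limma adjusted p = 0.0364) and Mef2c lower at -0.36 ± 0.11 (limma adjusted p = 0.0473). Creb1, a cAMP and calcium responsive factor, was lower on its brightest probe at -0.47 ± 0.14 (limma adjusted p = 0.0479), a call lost on leaving out any 1 heart (up to 0.118 by limma), while its other probes had 0.39 and 0.28 and did not pass. Hdac4 had a log2 difference of -0.09 and did not pass. Leaving out 1 heart ended the call of Hdac5 in 6 of 8 cases, all but fasted heart 4 and satiated heart 2 (limma adjusted p up to 0.109), that of Mef2d in all but fasted heart 2 (up to 0.0905), and that of Mef2c in all but fasted heart 3 (up to 0.122).

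Calcineurin, the phosphatase that calmodulin also activates, was followed through 20 kept genes, of which 1 rose and 2 fell in fasted hearts and 17 did not pass (15% called, median 0.06). Rcan1, a calcineurin regulator and target, was higher, with a log2 difference of 1.05 ± 0.27 (limma adjusted p = 0.0267). It read 909%, 661%, 1680% and 914% in fasted hearts 1 to 4, against 393%, 517%, 479.6% and 516% in satiated hearts 1 to 4. Fasted heart 3 was again the highest, and the call was lost without fasted heart 1 or without any 1 satiated heart (limma adjusted p between 0.0539 and 0.0677).

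Akap5 anchors calcineurin and protein kinase A at the membrane. It read 4.68%, 5.86%, 3.48% and 4.73% in fasted hearts 1 to 4, against 22.7%, 63.5%, 14.7% and 43.6% in satiated hearts 1 to 4. The groups did not overlap, and the log2 difference was -2.75 ± 0.43 (limma adjusted p = 0.00401). It was well above background in only 2 of 4 fasted hearts, against 4 of 4 satiated hearts, so the size of the difference is uncertain. With normexp background correction it was -1.48 (limma adjusted p = 0.00851). Fkbp1a, the FK506-binding protein, was lower at -0.34 ± 0.10 (limma adjusted p = 0.0477), a call lost on leaving out any 1 heart but fasted heart 3 (limma adjusted p between 0.0837 and 0.129). With replicate numbers blocked, 5 genes of the list were called.

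Splicing factors, among them some that act on Camk2d transcripts, made up the fourth list. Of 18 kept genes, 2 rose and 4 fell in fasted hearts and 12 did not pass (33.3% called, median -0.18). Srsf3, an SR protein, read 18.4%, 13.1%, 10.4% and 19.2% in fasted hearts 1 to 4, against 40.6%, 41.2%, 49.0% and 44.4% in satiated hearts 1 to 4. The groups were clearly apart, with a log2 difference of -1.56 ± 0.21 (limma adjusted p = 0.00225). It was -0.98 with normexp background correction (limma adjusted p = 0.00118). Ptbp2, a polypyrimidine tract-binding protein, averaged 282% ± 54.9 in fasted and 140.0% ± 14.9 in satiated hearts (SD, n = 4 each), a log2 difference of 1.0 ± 0.16 (limma adjusted p = 0.00448).

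Rbm20, a splicing repressor whose targets include Camk2d and titin, was lower in fasted hearts on its brightest probe. This read 388%, 371%, 345% and 372% in fasted hearts 1 to 4, against 557%, 522%, 562% and 493% in satiated hearts 1 to 4. The groups did not overlap, and the log2 difference was -0.53 ± 0.11 (limma adjusted p = 0.011). A further Rbm20 probe was at 0.34 and did not pass the test. Qk, the quaking RNA-binding protein, was likewise split by probe, with -0.99 ± 0.19 (limma adjusted p = 0.00844) on its brightest probe and 0.18 and 0.48, neither passing, on others.

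Celf2, a CUG-binding splicing factor, was called in both directions by different probes. Its brightest, A_51_P182471, gave 0.59 ± 0.16 (limma adjusted p = 0.0317), and A_52_P243542 gave -0.93 ± 0.12 (limma adjusted p = 0.00195). The first call was lost without any 1 satiated heart (limma adjusted p between 0.0652 and 0.0791). Rbfox1, an RNA-binding splicing factor of muscle and neurons, was lower in fasted hearts without overlap, at -0.92 ± 0.28 (limma adjusted p = 0.0469), a call lost on leaving out any 1 heart but fasted heart 2 (limma adjusted p up to 0.117). Its relative Rbfox2, and Srsf1 and Rbm24, factors known to act on muscle splicing, had log2 differences of -0.04, -0.17 and -0.27 and did not pass. Which of these factors, if any, goes with the Camk2d probes was not tested.

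Markers of the cells that a heart sample can hold were set beside these values. Of 8 cardiomyocyte markers all were kept and 2 fell in fasted hearts, with a summed level of 200171% to 283453% in fasted and 216673% to 290798% in satiated hearts. Of 12 neuron markers, 6 were kept and 1, Prph, rose (log2 difference 1.64, limma adjusted p = 0.0422), with a summed level of 98.6% to 120.5% in fasted and 88.9% to 96.7% in satiated hearts. Th, Dbh, Chrna3, Snap25 and Gap43 were among those not well above background on enough arrays to be kept. Prph was dim, with a mean log2 level of -4.26 in fasted and -5.90 in satiated hearts, so the size of its difference is uncertain. Its call was not tested by leaving out each heart. Of 6 Schwann cell markers 1 fell, S100b, with a summed level of 247% to 269% in fasted and 269.9% to 305% in satiated hearts. Neither sum overlapped between the groups. In fasted hearts, where Camk2b and the brighter Camk2a probe read lower, the neuron sum was higher and the Schwann cell sum lower. Uchl1, which contributes most to the neuron sum, had a log2 difference of 0.56 ± 0.22 (limma adjusted p = 0.104), which did not pass.

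Of 6 fibroblast markers 1 rose and 4 fell (median -1.23). Their summed level was 22428% to 27426% in fasted and 23283% to 26608% in satiated hearts. Most of this sum is Dcn, the marker that rose, with a mean log2 level of 7.70 in fasted and 7.14 in satiated hearts. The sum therefore says little about the 4 that fell. Of 5 smooth muscle markers 2 fell, with sums of 5644% to 6903% in fasted and 6495% to 7842% in satiated hearts. None of 8 skeletal muscle, 6 endothelial, 5 macrophage, 3 red blood cell and 5 adipocyte markers passed in limma, and at an unadjusted p under 0.05 these had 0, 1, 0, 0 and 1. Their median log2 differences were -0.96, 0.01, -0.08, 0.16 and 0.13. The skeletal muscle values were noisy. Pvalb, the largest decrease, had -1.95 ± 1.30 without overlap, and only Tnni2 was positive, at 0.05. Not passing therefore does not show that the skeletal muscle markers were unchanged. The part of these cells in the CaM kinase II differences was not tested.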

How the data were processed

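Heart RNA of 4 fasted and 4 satiated mice was hybridised to 1-colour Agilent arrays, 1 per mouse. The deposited scanner tables give intensity on a linear scale, background-subtracted within each array, per the file headers. The headers name Feature Extraction 10.5.1.1 for slide 1 and 10.7.3.1 for slide 2, and the submitters' processing notes name Agilent Feature Extraction 9.1. Slide, scan and software version cannot be told apart, and both slides carried 2 fasted and 2 satiated hearts. A deposited series table, a linear ratio per probe and array, served as an alternative. The steps behind it are not given in the sources used here.

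Of 45018 spots per array, the 1639 controls and the outlier spots were dropped and spots of a probe were averaged. From log2 intensity the 75th percentile of the array was subtracted. Kept were 26478 of 41174 probes, those that 4 or more arrays measured well above background. Names came from RefSeq genes of GRCm38.p6 by accession, for 26932 probes (65.4%) of 18351 genes. The slides carry different annotation releases, in which 1782 probes differ in accession. The 10 named differently were left unnamed. The member probes carry the same accession in both.

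In R 4.3.3, limma 3.58.1 (lmFit, then eBayes) was fitted over all kept probes and tested two-sided, with Benjamini-Hochberg adjustment over all of them and a threshold of 0.05. Tables were read with the package data.table (version 1.17.8). Figures used matplotlib 3.10.9. The fit was also tested on simulated data. The 8 arrays limit the precision. Alternatives were other scalings, normexp background correction (offset 50, on the median spot signal), filters, slide or replicate number as a block, each slide alone, array weights, the deposited ratios, the mean of a gene's probes, and leaving out each heart. Leaving out each heart for Ppm1e, Camkk1, Dapk1, Creb1, Rbfox1 and a further Atp2a2 probe was added after seeing the data.

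Same-numbered fasted and satiated hearts deviated together from their group means (r of 0.459, 0.499, 0.341 and 0.503), but differently numbered hearts of the same slide did so too (0.304 to 0.531). The pairing comes from the titles' numbers and overlaps with the slide. With the replicate block 8974 probes were called, against 5536 without.

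Named were all member probes, up to 5 called genes of each pathway list with the smallest p, and the 3 genes most like the brightest probe of each member gene. Other list genes named, and further probes of a gene, were chosen after their values were seen. Members and lists were chosen with earlier results of these data known. Values of some list genes are not reported here.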

Additional observations from a re-analysis of the deposited data

Results flagged for a closer look

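In 3 of 50 groups of 4 hearts, a heart stood apart from the others of its group, with a gap, as a share of the whole range of its log2 levels, above the critical value of the Dixon test. Chance flags about 1 in 20 groups. Camk2g A_51_P132849 had a gap of 0.89533 of the range in satiated hearts, where replicate 1 read 549% and the others 708% to 729.6%. Celf2 A_51_P182471 had a gap of 0.89412 in fasted hearts, where replicate 3 read 906% and the others 588% to 616%. The same Celf2 probe had a gap of 0.82902 in satiated hearts, where replicate 3 read 421% and the others 451% to 457%.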

How the results depend on the processing

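Of the member probes, all but the dim Camk2a probe kept the sign of their difference under all 19 alternatives. The dim probe kept it in 11 of 18, with differences of -0.64 to 0.48. Probes without overlap numbered 5 on slide 1 alone, 6 on slide 2 alone, 3 to 5 on leaving out 1 heart, and 3 over all 8 hearts. Groups of fewer hearts separate more easily. Of all kept probes, 28.0% had no overlap over 8 hearts, and 46.9% had none within either slide in the same direction. The shares of all kept probes in the other settings were not counted, so nothing is read from these changes.

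Over all kept probes, limma called 5536, against 3274 of 41174 without a filter, 9759 with the slide as a block, 8974 with the replicate block, 2961 on slide 1 alone and 3442 to 4979 on leaving out 1 heart. On slide 2 alone it called 0, with 7318 at an unadjusted p under 0.05. The 4 lists likewise had 0 calls by limma on slide 2 alone, with 9 (calmodulin), 5 (calcineurin), 5 (substrates) and 6 (splicing) at an unadjusted p under 0.05. The calmodulin list had 4 without a filter and 3 to 8 on leaving out 1 heart. The calcineurin list had 1 without a filter, 6 with the slide block, 5 with the replicate block, 1 on slide 1 alone and 1 to 3 on leaving out 1 heart. The substrate list had 2 without a filter, 12 with the slide block, 10 with the replicate block, 10 with array weights, 2 on slide 1 alone and 2 to 6 on leaving out 1 heart. The splicing list had 3 by the mean of a gene's probes and 4 to 6 on leaving out 1 heart.

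Among the genes named by rule no call was reversed, and none was lost under the replicate block. In 82 of 341 combinations of gene and alternative the call was lost, with all 18 lost on slide 2 alone. Ppm1f, Camk1, Camk2n1, Akap5, Kcnd2, Cacnb2, Srsf3, Ptbp2, Qk and Rbm20 lost none on leaving out 1 heart. With the filter set to all 8 arrays, the dim Camk2a probe and Akap5 were not tested. The spot mean was not used for normexp, which took the spot median. Normexp moved Akap5 to -1.48 and Srsf3 to -0.98. Low signal over background on slide 2 limits the dim Camk2a probe and Akap5.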
